A study of Mus musculus with 18 samples.

Results

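The genes described here are 9 enzymes of glycolysis and the enzyme of its red cell side branch: Hk1, Gpi1, Pfkl, Aldoa, Tpi1, Pgk1, Pgam1, Bpgm, Eno1 and Pklr. They were taken by name from the deposited count table, where all 10 were found among 23365 rows, and all 10 passed the filter on low counts that left 13405 genes for testing. RNA was sequenced from mouse spleen erythroblasts, the nucleated precursors of red cells, sorted as CD71+ (the transferrin receptor) and TER119+ (a surface marker of maturing red cells). The 18 libraries carry 5 genotypes of Klf1, the gene of an erythroid transcription factor: 4 are D45/KO, 3 are D45/D45, 5 are WT/KO, 3 are WT/D45 and 3 are WT/WT. D45 is the MommeD45 allele, KO a knockout allele and WT the wild-type allele. The series title places the missense mutations in linker-2 of the protein, and the series design describes haemolytic anaemia with an enlarged spleen in compound heterozygotes, which here is D45/KO. The spleen is where the labels place every library, while no source used here gives age, sex or strain. The series design calls the replicates biological.

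Glycolysis splits glucose into pyruvate and is the only source of ATP in the mature red cell, which has lost its mitochondria. Hexokinase, phosphofructokinase and pyruvate kinase catalyse its irreversible steps, and the red cell uses its own pyruvate kinase made from the upstream start of Pklr. Bpgm diverts an intermediate into bisphosphoglycerate, which lowers the oxygen affinity of haemoglobin. Inherited lack of several of these enzymes, pyruvate kinase and glucose phosphate isomerase among them, causes haemolytic anaemia in people. KLF1 binds CACC-type sequences in erythroid promoters and GATA1 binds GATA sequences, which is why the promoters of the members that lead the results are printed here.

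RefSeq windows on GRCm38.p6, from 250 bases before to 50 after a start site, were matched for all 10 members, in 16 windows. They are shown 5′ to 3′ on the strand of the gene. Capitals mark every match, on either strand and with overlaps kept, to the KLF-type letters CCNCNCCC, to CCACACCC (which is one form of CCNCNCCC) or to the GATA letters AGATAA. The upstream Pklr window is the one used in red cells, the Bpgm window belongs to the most abundant member, and the Hk1 window held more CCNCNCCC matches, 6, than the other 2 windows printed.
Pklr, chr3:89135892-89136191, plus strand: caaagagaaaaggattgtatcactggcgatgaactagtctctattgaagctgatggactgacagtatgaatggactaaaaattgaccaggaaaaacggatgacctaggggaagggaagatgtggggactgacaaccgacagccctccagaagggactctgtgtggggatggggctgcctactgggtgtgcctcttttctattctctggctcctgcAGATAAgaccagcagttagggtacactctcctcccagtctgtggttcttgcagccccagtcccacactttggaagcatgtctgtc
Bpgm, chr6:34476106-34476405, plus strand: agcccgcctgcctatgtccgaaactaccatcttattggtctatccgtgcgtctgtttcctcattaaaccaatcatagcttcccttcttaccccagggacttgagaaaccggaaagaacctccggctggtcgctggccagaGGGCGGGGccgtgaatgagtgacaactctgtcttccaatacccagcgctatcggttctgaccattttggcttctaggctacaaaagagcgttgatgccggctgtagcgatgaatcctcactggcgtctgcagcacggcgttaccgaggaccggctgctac
Hk1, chr10:62340372-62340671, minus strand: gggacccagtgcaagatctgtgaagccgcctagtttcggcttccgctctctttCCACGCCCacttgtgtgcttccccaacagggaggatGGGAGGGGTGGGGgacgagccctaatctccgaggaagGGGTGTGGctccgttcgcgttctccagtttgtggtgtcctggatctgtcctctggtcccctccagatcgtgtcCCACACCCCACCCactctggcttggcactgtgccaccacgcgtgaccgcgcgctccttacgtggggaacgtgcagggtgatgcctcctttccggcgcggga
CCNCNCCC occurs in 49.5% of 32851 mouse promoter windows of the same length, and it was found in 13 of the 16 windows of the members. Neither Pklr window held it. AGATAA occurs in 11.2% of all windows, and among the members it stood only in the upstream Pklr window, 35 bases before the start. The Bpgm window held 1 match to CCNCNCCC, 110 bases before the start. CCACACCC occurs in 3.56% of all windows and was found in 2 windows of the members, those of Hk1 printed above and of Aldoa. A match is a description of the letters and no evidence of binding.

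Before the results, the libraries need describing, since they divide within every genotype. Total counts ran from 9.36 M to 56.3 M (M for mega). The erythroid identity of the sort was seen in Tfrc, the gene of CD71, at 711 to 4641 CPM (counts scaled to the library size as adjusted by TMM) and in Gata1 at 110 to 752 CPM. Hba-a1, which has an identical copy, held at most 16 counts per library in this table. The 13 B cell markers fixed for checking the sort summed to between 2.36 and 2233 CPM, and their mean log2 CPM was above 0 in 9 libraries (3.63 to 7.07, called rich) and below 0 in the other 9 (-2.65 to -0.77, called poor). The rich libraries are 3 of 4 D45/KO, 1 of 3 D45/D45, 3 of 5 WT/KO, 1 of 3 WT/D45 and 1 of 3 WT/WT. The 8 macrophage and monocyte markers summed to 2331 CPM in D45/KO replicate 2 and to 2106 and 1402 CPM in WT/KO replicates 2 and 3, against 62.9 to 375 CPM in the other libraries. The 8 T and NK cell markers summed to 7.41 to 26.8 CPM in D45/KO, 15.4 to 21.3 in D45/D45, 14.4 to 76.9 in WT/KO, 16.2 to 29.8 in WT/D45 and 28.2 to 30.1 in WT/WT. In these sums D45/KO and D45/D45 lay below WT/WT without overlap, but in WT/WT replicate 2, 7 of the 8 markers had 0 counts. In mean log2 CPM they overlapped, at -2.06 to 1.29 in D45/KO, -1.50 to 0.69 in D45/D45 and -3.08 to 0.83 in WT/WT. The 7 neutrophil markers found summed to 1.40 to 53.1 CPM in WT/KO, against 113 to 275 in WT/WT, without overlap in the sums, while D45/KO (20.0 to 199.7) overlapped with WT/WT. In mean log2 CPM the neutrophil markers of WT/KO reached 2.50 and those of WT/WT began at 2.42, which overlap. The part of these cells in the members' values was not tested. Globin genes took 6.28 to 19.1% of counts in rich and 14.1 to 47.2% in poor libraries. The 10 erythroid markers fixed for the same check summed to 27749 to 78346 CPM in rich and 105700 to 746600 CPM in poor libraries, without overlap. Hbb-b1, which is 1 of the 10, alone ran from 13994 to 639420 CPM over the libraries. In mean log2 CPM the 9 erythroid markers that passed the filter, all but Hba-a1, stood at 9.82 to 11.50 in rich and 11.91 to 12.70 in poor libraries. In CPM the rich and poor classes thus differ in erythroid as well as in B cell markers. The TMM factors, which scale the library sizes used for CPM, were 1.09 to 1.93 in rich and 0.366 to 0.954 in poor libraries. These factors also separate the classes, and without them the erythroid sums overlap. Klf1 itself averaged 576 ± 209 CPM in D45/KO, 1227 ± 457 in D45/D45, 415 ± 311 in WT/KO, 982 ± 386 in WT/D45 and 821 ± 322 in WT/WT (SD), and it did not pass the edgeR test of the 5 genotypes (adjusted p = 0.998), but did in the fit that includes the marker level (adjusted p = 0.0306, edgeR). In sorted bulk samples, fewer cells of a type and less RNA per cell cannot be told apart.

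The members spanned a wide range of levels, compared per length of their merged exons. Bpgm stood far above the rest, with a median over the libraries of 1117 CPM per kilobase, and it ranked 11th of all rows by mean CPM. Hk1, which phosphorylates glucose on entry, followed at 63.3 CPM per kilobase. Aldoa, the aldolase, had a median of 23.1, Tpi1 (triose phosphate isomerase) 12.3 and Pgk1 (phosphoglycerate kinase) 11.2 CPM per kilobase. Pklr stood at 5.70, Pfkl, the liver-type phosphofructokinase subunit, at 3.67, Gpi1 (glucose phosphate isomerase) at 2.91 and Pgam1 (phosphoglycerate mutase) at 2.28 CPM per kilobase. The lengths merge the exons of all annotated transcripts, and the order of Pklr, Pfkl and Gpi1 depends on them. In CPM their medians were 18.4, 24.5 and 18.8. Eno1, an enolase, was counted at only 0.136 CPM per kilobase, with 0 to 137 counts per library. Some of these levels are uncertain because reads can be shared with near-identical copies: of the 50-base stretches of GENCODE transcripts, 53.9% of those of Pgk1, 36.2% of Pgam1 and 26.0% of Eno1 also occur in another gene, against 8.23% for Gpi1, 5.13% for Aldoa, 4.18% for Tpi1 and 0.03% for Pfkl. Hk1, Bpgm and Pklr share none. These shares pool every annotated transcript of a gene, and the share within its main mRNA alone was not measured. Whether reads of Eno1 went uncounted for this reason was not tested.

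**Figure D1:**
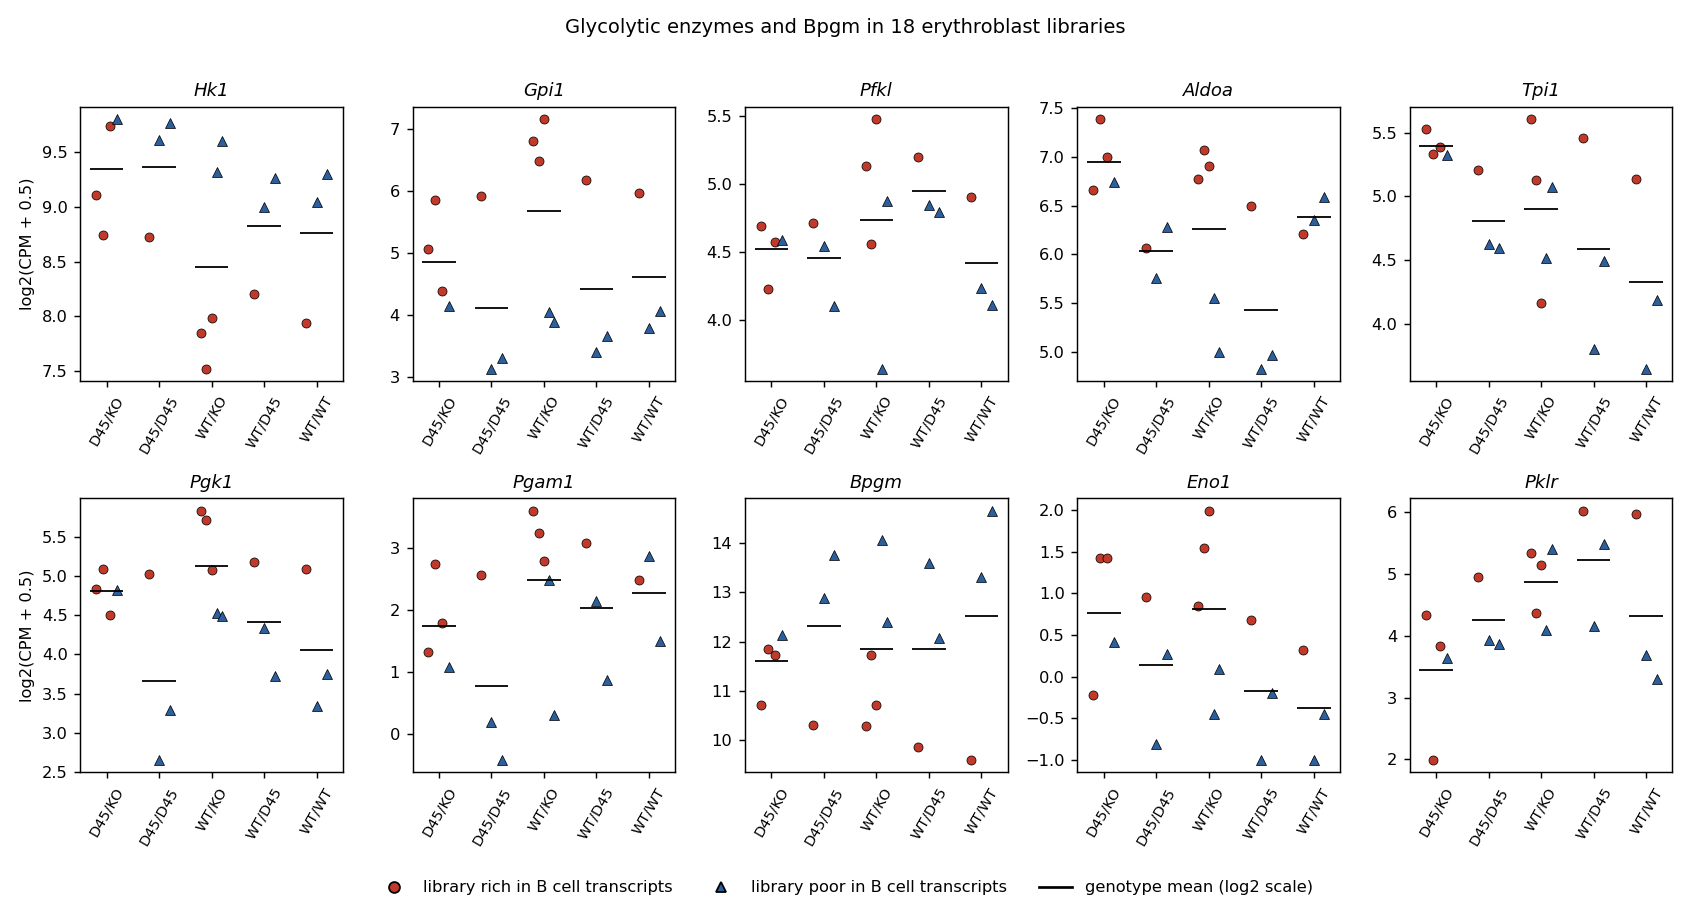
Level of each member as log2(CPM + 0.5) in every library, by genotype; red circles are libraries rich and blue triangles libraries poor in B cell transcripts, and lines are genotype means on the log2 scale. Gpi1 is higher in all 9 rich libraries than in the 9 poor ones and Bpgm is lower, while the 4 D45/KO libraries of Tpi1 lie between 39.7 and 45.6 CPM.

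No member passed an adjusted p of 0.05 in any of the 6 pairs of genotypes or in the edgeR quasi-likelihood test across the 5 genotypes. Of the 13405 genes tested, 0.172% were called in D45/KO against WT/KO, 0.00746% in D45/KO against D45/D45, 0.619% in D45/KO against WT/WT and 0.336% across the 5 genotypes. D45/D45, WT/KO and WT/D45 against WT/WT each had 0% called by edgeR, with 545, 573 and 194 genes at an unadjusted p under 0.05 and 68, 19 and 0 called by DESeq2. The members' median log2 fold change was -0.38 in D45/KO against WT/KO, where that of all tested genes was -0.15. It was 0.31 in D45/KO against WT/WT, beside 0.07 for all genes. There 7 of the 10 members lay above 0, beside 54.2% of all genes, and 5 with DESeq2 size factors, beside 50.8%. The members' median was 0.43 in D45/KO against D45/D45 (0.06 for all genes). Set against WT/WT, it was -0.25 in D45/D45 (0.01 for all genes), 0.44 in WT/KO (0.26) and 0.16 in WT/D45 (0.10). DESeq2 also called 0 members. It called 1.38% of genes in D45/KO against WT/KO, 0.127% against D45/D45 and 3.14% against WT/WT. It called 0.507% in D45/D45, 0.142% in WT/KO and 0% in WT/D45 against WT/WT, and 2.39% across the 5 genotypes. The comparisons with WT/WT share its 3 libraries, and those with D45/KO share its 4.

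Members were called under 5 alternative settings, most of which also called far more of all genes. Limma-voom with library quality weights called Hk1, higher, and Pgam1, lower, in D45/KO against WT/KO, beside 17.9% of all genes. It called Aldoa and Pgk1, both higher, in D45/KO against D45/D45 (5.24% of genes) and 3 members across the 5 genotypes (17.1%). Among mice with an identifier under 200, all 7 of them rich in B cell transcripts, Hk1 was higher and Gpi1 and Pklr were lower in D45/KO than in WT/KO (18.4% of genes called), Pklr was lower in D45/KO than in WT/WT (4.35%) and 3 members were called across the genotypes (10.5%). The poor libraries alone gave 1 call across the genotypes, Aldoa, beside 1.8% of genes. D45/D45, WT/D45 and WT/WT have 1 library each among those 7 mice and among the rich libraries, and D45/KO has 1 among the poor libraries, so a lone library is there assumed to vary like the other genotypes. The fits to rich libraries and with the B cell covariate are given under Hk1 and Gpi1.

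Bpgm, the most abundant member, had the largest differences in mean CPM between genotypes and the largest SDs in CPM within them. Relative to the mean, the spread of Bpgm was the largest of the members in WT/KO, with a coefficient of variation of 113.65%, before Eno1 with 84.0%. In each other genotype a different member had the largest, as in D45/D45, where Bpgm had 83.0%, Pgam1 137% and Gpi1 114%. Its levels were 1674, 3684, 3396 and 4523 CPM in D45/KO, 1276, 7533 and 13780 CPM in D45/D45, 1254, 3382, 1691, 17195 and 5441 CPM in WT/KO, 929, 12395 and 4333 CPM in WT/D45, and 776, 10142 and 25849 CPM in WT/WT. The lowest library of each genotype is one rich in B cell transcripts, and all genotypes overlap. The means were 3319 ± 1196 CPM in D45/KO, 7530 ± 6252 in D45/D45, 5793 ± 6584 in WT/KO, 5886 ± 5889 in WT/D45 and 12256 ± 12670 in WT/WT (SD). In D45/KO against WT/WT the log2 fold change was -1.88 ± 1.23 (SE, adjusted p = 0.777, edgeR), and in D45/KO against WT/KO it was -0.80 ± 1.09 (adjusted p = 0.927, edgeR). The other values were -1.18 ± 1.21 in D45/KO against D45/D45, -0.70 ± 1.31 in D45/D45 against WT/WT, -1.08 ± 1.14 for WT/KO over WT/WT and -1.06 ± 1.32 for WT/D45 over WT/WT, none called. Within the rich libraries alone the sign of every one of these turned, with 0.51 in D45/KO against WT/KO, 1.20 against D45/D45 and 1.86 against WT/WT, and 0 members other than Hk1 and Gpi1 called. Without WT/WT replicate 3, the values of D45/D45, WT/KO and WT/D45 against WT/WT were 0.47, 0.087 and 0.11.

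The level of Bpgm followed the division of the libraries. It was 776 to 3684 CPM in the 9 rich libraries, with a median of 1674. The 9 poor ones had 4333 to 25849 CPM, with a median of 10142, so that the classes do not overlap in CPM. CPM is scaled by the TMM factors, which also separate the classes. As a share of all counts, without those factors, Bpgm ran from 0.143 to 0.946% over the libraries, and there the classes overlapped. Of all tested genes, 6.06% were lower in the rich libraries without overlap in CPM. Gpi1 was higher in the rich libraries without overlap, at 20.4 to 142 CPM (median 62.2) against 8.29 to 17.2 CPM (median 13.3), a pattern held by 6.36% of tested genes. The other 8 members overlapped between the classes. In medians, 8 of the 10 members were higher in the rich libraries, against 56.3% of all tested genes, and Bpgm and Hk1 were lower. Hk1 had medians of 294 and 640 CPM in rich and poor libraries, Aldoa 109 and 53.6, Pgk1 33.5 and 12.9, and Pklr 30.6 and 14.7. Among the genes of glycolysis that are no members, Pkm, the pyruvate kinase of most other cells, had medians of 75.6 and 6.83 CPM. In CPM the erythroid markers also differed between these classes. What part the B cell transcripts or the erythroid level have in the members' levels was not tested.

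**Figure D2:**
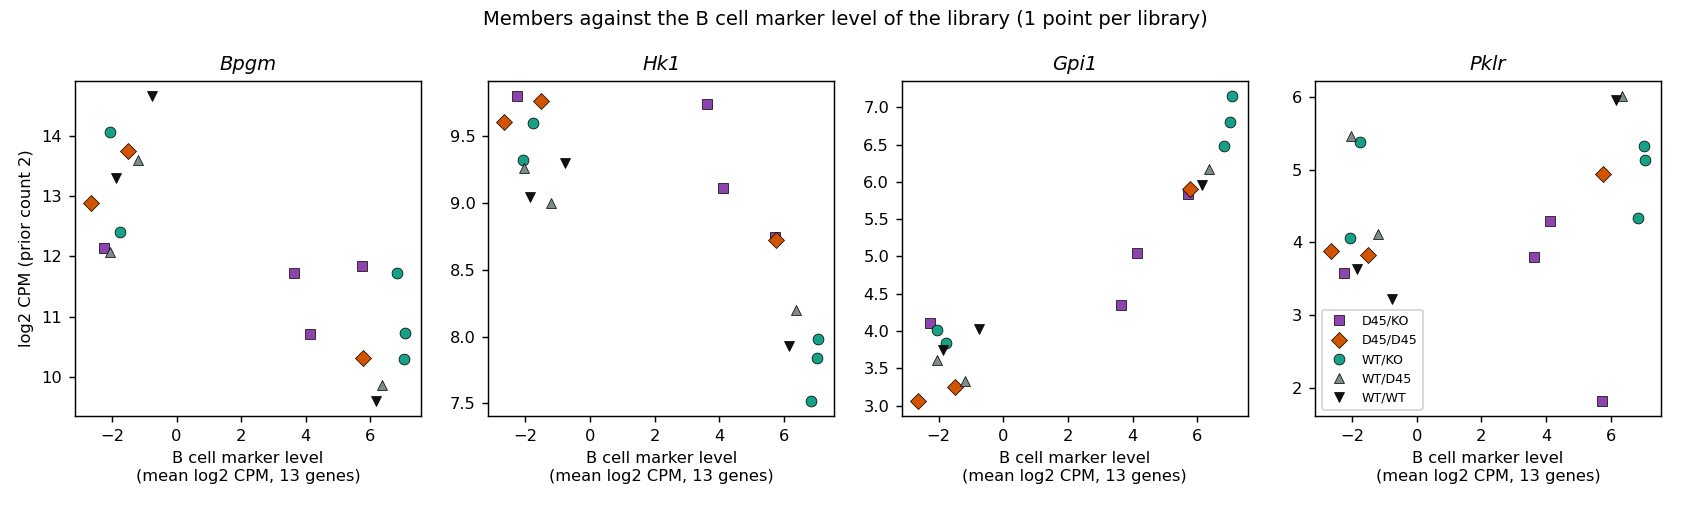
Log2 CPM of Bpgm, Hk1, Gpi1 and Pklr against the mean log2 CPM of 13 B cell markers, 1 point per library, with colour and shape by genotype. Every library with a marker level above 0 is lower in Bpgm and higher in Gpi1 than every library below 0, Hk1 is lower there in its median but overlaps, and Pklr overlaps, with D45/KO replicate 2 the lowest point at 3.48 CPM.

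Hk1 was higher in D45/KO and D45/D45 than in the genotypes with a WT allele by its means, but the libraries overlapped. It reached 553, 429, 855 and 891 CPM in D45/KO, 423, 780 and 869 CPM in D45/D45, 229, 183, 253, 640 and 778 CPM in WT/KO, 294, 511 and 615 CPM in WT/D45, and 244, 527 and 629 CPM in WT/WT. In D45/KO against WT/KO the log2 fold change was 0.71 ± 0.47 (adjusted p = 0.927, edgeR). Adding the marker level to the model gave 0.82 ± 0.21 (adjusted p = 0.041, edgeR), where 2.83% of all genes were called, and Hk1 was then the only member called in any comparison. Among the rich libraries the 3 of D45/KO lay at 429 to 855 CPM and the 3 of WT/KO at 183 to 253 CPM, and the fit to rich libraries gave 1.51 (adjusted p = 0.0247, edgeR). The marker level differed between these same libraries, at 3.63 to 5.73 in D45/KO against 6.83 to 7.07 in WT/KO, and its part was not tested. Against WT/WT the covariate fit gave 0.86 ± 0.25 (adjusted p = 0.0586, edgeR), which missed the threshold.

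In every genotype, the rich libraries held more Gpi1 than the poor ones. Its levels were 32.8, 57.3, 20.4 and 17.2 CPM in D45/KO, against 111, 89.3, 142, 16.1 and 14.3 CPM in WT/KO. The log2 fold change was -1.22 ± 0.84 (adjusted p = 0.927, edgeR). In the rich libraries alone it was -1.57 (adjusted p = 0.0356, edgeR), among 7.55% of genes called, while in the poor libraries alone it was 0.22 and with the covariate -0.56 (adjusted p = 0.328, edgeR). D45/D45, WT/D45 and WT/WT averaged 25.8 ± 29.4, 31.4 ± 35.1 and 30.6 ± 27.5 CPM (SD, n = 3 each).

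Aldoa and Tpi1, which work on neighbouring steps, were higher in every D45/KO library than in every D45/D45 and every WT/WT library. Aldoa reached 100, 166.3, 127 and 106 CPM in D45/KO, 66.5, 53.6 and 77.1 CPM in D45/D45, and 73.2, 81.1 and 95.7 CPM in WT/WT. Tpi1 reached 45.6, 39.7, 41.4 and 39.7 CPM in D45/KO, 36.5, 24.1 and 23.6 CPM in D45/D45, and 34.7, 12.04 and 17.7 CPM in WT/WT. Genotypes without overlap, in either direction, were found for 4.77% of all genes in D45/KO against D45/D45 and for 10.2% in D45/KO against WT/WT, beside 2 of the 10 members in each, a count too small to say more. No member lacked overlap in D45/KO against WT/KO (2.71% of genes), D45/D45 against WT/WT (11%), WT/KO against WT/WT (1.61%) or WT/D45 against WT/WT (4.04%). For Tpi1 in D45/KO against WT/WT the log2 fold change was 0.95 ± 0.43 (unadjusted p = 0.0425, adjusted p = 0.528, edgeR). For Aldoa in D45/KO against D45/D45 it was 0.93 ± 0.47 (adjusted p = 1, edgeR). WT/KO libraries ran from 31.5 to 134 CPM for Aldoa and from 17.4 to 48.1 CPM for Tpi1 and overlapped with D45/KO, and 3 of the 4 D45/KO libraries and 1 of 3 in D45/D45 and in WT/WT are rich in B cell transcripts.

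Pklr had the smallest unadjusted p of the members over the 6 pairs in the edgeR fit of genotype alone. Its levels were 19.6, 3.48, 13.8 and 11.9 CPM in D45/KO, 30.6, 14.7 and 14.1 CPM in D45/D45, 39.96, 20.2, 34.9, 16.6 and 41.7 CPM in WT/KO, 64.4, 17.3 and 44.1 CPM in WT/D45, and 62.2, 12.4 and 9.32 CPM in WT/WT. D45/KO had the lowest mean and WT/D45 the highest, and WT/WT held both a very high and a very low library. In D45/KO against WT/KO the log2 fold change was -1.33 ± 0.60 (unadjusted p = 0.0394, adjusted p = 0.865, edgeR), with 3 of the 4 D45/KO libraries below the lowest WT/KO library. It stayed below 0 in all 25 other settings, between -1.74 and -1.02, and it was called in 1 of them, the fit to mice with an identifier under 200. In D45/KO against WT/WT it was -1.20 ± 0.65 (adjusted p = 0.656, edgeR) and it was 0.17 without WT/WT replicate 1, the rich library of that genotype.

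Pgk1, whose gene shares much of its sequence with a copy, had 28.0, 33.6, 22.3 and 27.8 CPM in D45/KO, 32.2, 5.79 and 9.27 CPM in D45/D45, 56.7, 52.2, 33.2, 22.6 and 21.9 CPM in WT/KO, 35.9, 19.6 and 12.7 CPM in WT/D45, and 33.5, 9.66 and 12.9 CPM in WT/WT. D45/KO libraries were closer together than those of the other genotypes. In WT/KO against WT/WT the log2 fold change was 0.99 ± 0.56 (adjusted p = 0.818, edgeR), and in D45/KO against D45/D45 it was 0.82 ± 0.58 (adjusted p = 1, edgeR). Pfkl, Pgam1 and Eno1 had no unadjusted p under 0.1 in the edgeR fit of genotype alone. With the marker level included, Pgam1 had an unadjusted p of 0.036 in D45/D45 against WT/WT (adjusted p = 0.425, edgeR) and Eno1 one of 0.073 in D45/KO against WT/WT (adjusted p = 0.339, edgeR). Pfkl ranged from 11.98 to 44.0 CPM over the libraries, Pgam1 from 0.250 to 11.6 CPM, and Eno1 from 0 to 3.47 CPM. The log2 fold change of Pgam1 in D45/KO against WT/KO was -1.04 ± 0.86 (adjusted p = 0.927, edgeR).

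In the order of the genotype means, the 40 neighbouring pairs (4 for each member) lay closer together than the larger of their 2 SDs in all but 1, WT/WT above D45/D45 for Aldoa. In the ranking of Bpgm the order was WT/WT, D45/D45, WT/D45, WT/KO and D45/KO, and in that of Hk1 it was D45/D45, D45/KO, WT/D45, WT/WT and WT/KO.

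**Figure D3:**
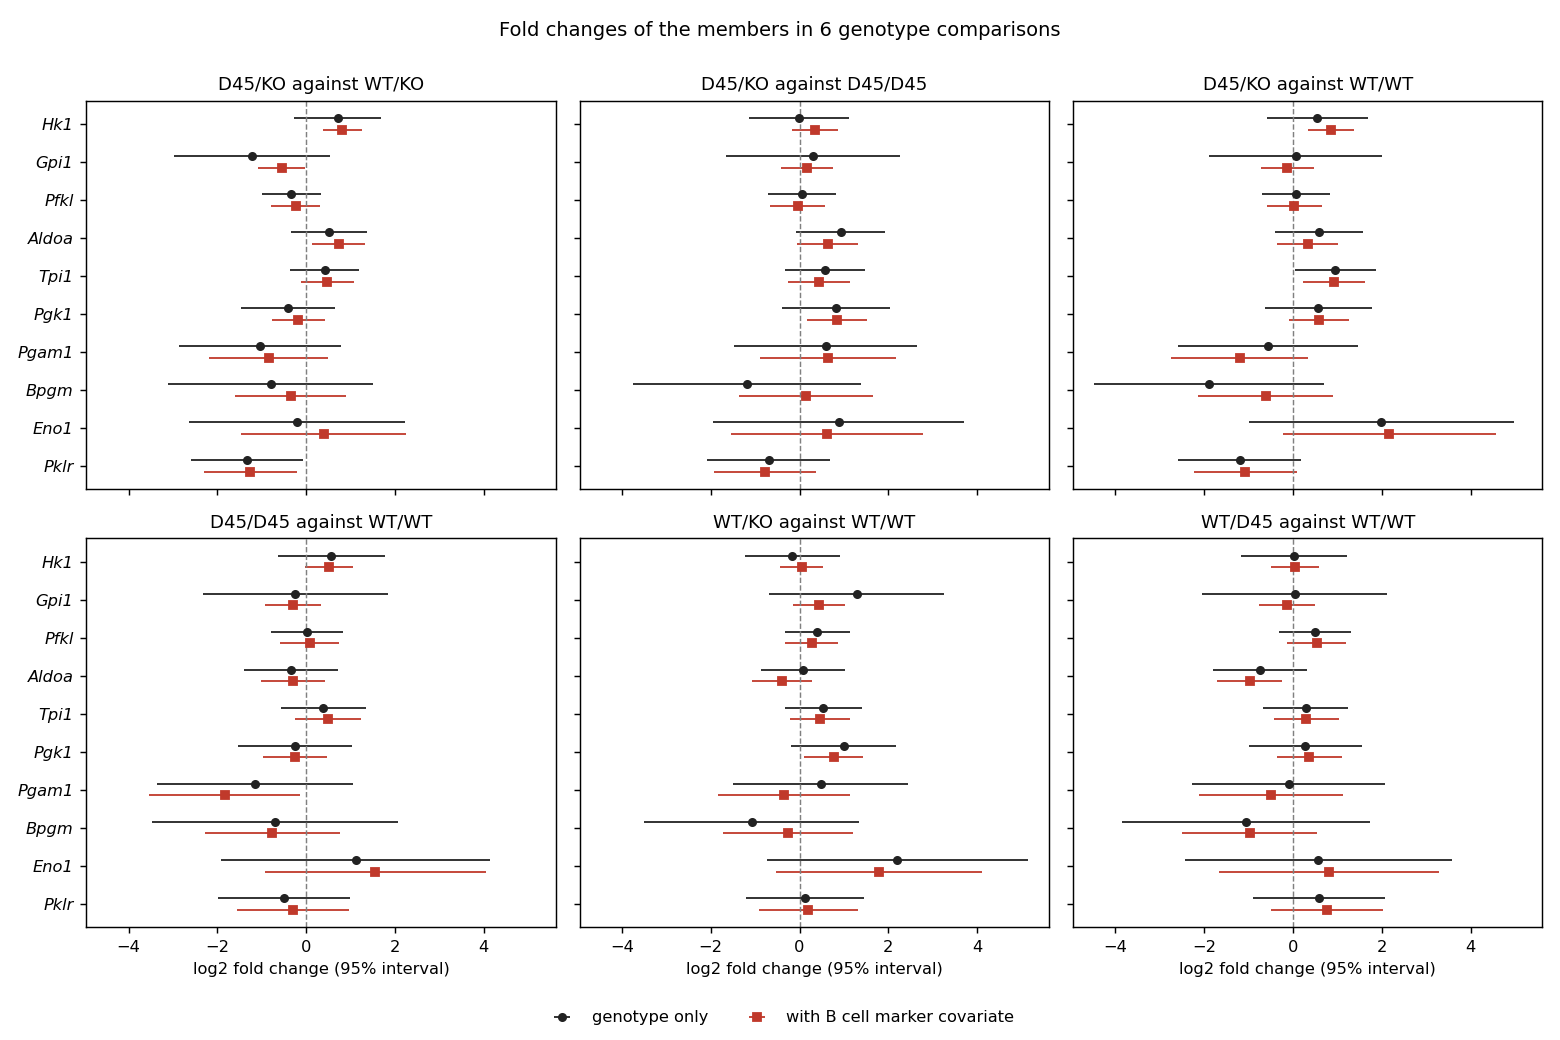
Log2 fold change of each member in 6 genotype comparisons, with 95% intervals, from the edgeR fit with genotype only (black circles) and with the B cell marker level added (red squares). Most intervals include 0, and Hk1 in D45/KO against WT/KO is the 1 value called, in the fit with the covariate.

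Ratios of genes within a library do not depend on the scaling of libraries, so 3 were compared over the 6 pairs, 18 exact two-sided permutation tests in all. Pklr to Pkm sets the red cell pyruvate kinase against that of other cells. Its mean log2 ratio was -0.74 ± 2.55 in D45/KO (n = 4), while D45/D45 had 0.43 ± 1.16 (n = 3), WT/KO -0.67 ± 2.15 (n = 5), WT/D45 1.34 ± 1.67 (n = 3) and WT/WT -0.63 ± 0.58 (n = 3). Bpgm to Pgam1, the closest relative of Bpgm, had means of 10.12 ± 0.96 in D45/KO, 12.31 ± 4.002 in D45/D45, 9.57 ± 2.57 in WT/KO, 10.04 ± 2.75 in WT/D45 and 10.40 ± 3.08 in WT/WT. Hk1 to Hk2, a hexokinase of other tissues, had means of 8.93 ± 1.64 in D45/KO and 6.90 ± 2.61 in WT/KO, a difference of 2.03 (exact permutation p = 0.206). All 18 adjusted p were 1 in these exact tests. The smallest p the design allows is 0.0159 for 4 against 5 libraries, 0.0571 for 4 against 3, 0.0357 for 5 against 3 and 0.1 for 3 against 3, so only D45/KO against WT/KO and WT/KO against WT/WT could reach 0.05 even before adjustment.

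Of 21 other genes of glycolysis and of its control that were listed beside the members, 17 were tested and 0 were called by edgeR in the 7 tests. DESeq2 called 0 of the 17 in D45/KO against WT/KO, 2, Pfkfb4 and Minpp1, in D45/KO against WT/WT (beside 3.14% of all genes), and 1, Pfkfb4, across the 5 genotypes (2.39%). Pfkfb4, an enzyme that makes and breaks the activator of phosphofructokinase, had the smallest p across the 5 genotypes (unadjusted p = 0.00272, adjusted p = 0.262, edgeR). Its levels were 14.9, 16.8, 12.6 and 21.3 CPM in D45/KO, 10.8, 11.4 and 8.01 CPM in D45/D45, 9.17, 5.99, 5.77, 3.81 and 8.17 CPM in WT/KO, 7.56, 6.09 and 6.91 CPM in WT/D45, and 5.38, 1.11 and 4.20 CPM in WT/WT. All 4 D45/KO libraries lay above every other library. Pfkfb4 was picked by its p in these same libraries, and the share of all genes with such a separation was not counted. Set against WT/WT, D45/KO had a log2 fold change of 2.20 ± 0.49 (adjusted p = 0.0568, edgeR) and 2.20 with the B cell covariate (adjusted p = 0.00776, edgeR). Set against WT/KO it was 1.31 ± 0.40 (adjusted p = 0.415, edgeR).

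Minpp1, a phosphatase that acts on inositol phosphates and on bisphosphoglycerate, was at 320, 142, 255 and 254 CPM in D45/KO, 205, 197 and 198 CPM in D45/D45, and 126, 77.9 and 102 CPM in WT/WT. D45/KO and D45/D45 lay above WT/WT without overlap, where 10.2% and 11% of all genes lacked overlap in either direction. WT/KO ran from 56.95 to 207 CPM and overlapped with both. WT/D45 ran from 106 to 185 CPM and overlapped with D45/KO. Like Pfkfb4, Minpp1 was picked by its p in these same libraries. The log2 fold change in D45/KO against WT/WT was 1.25 ± 0.40 (adjusted p = 0.263, edgeR), and 1.27 with the covariate (adjusted p = 0.0471, edgeR), and in D45/KO against WT/KO it was 0.99 ± 0.34 (adjusted p = 0.557, edgeR). Pfkfb2, a relative of Pfkfb4, was at 108, 95.9, 139 and 149 CPM in D45/KO libraries, against 52.3, 57.4 and 86.9 CPM in WT/WT libraries, with a log2 fold change of 0.91 ± 0.45 (adjusted p = 0.586, edgeR). With the B cell covariate it was called in D45/KO against WT/KO at 0.92 (adjusted p = 0.0151, edgeR) and against WT/WT, where 4.13% of genes were called, at 1.09 (adjusted p = 0.0106, edgeR). Pkm was at 16.4, 74.4, 15.9 and 4.44 CPM in D45/KO libraries, against 75.6, 15.3 and 23.1 CPM in WT/WT libraries, which overlap, and its log2 fold change of -0.45 was -1.38 with the covariate (adjusted p = 0.0385, edgeR). Other settings called more of the 17. In D45/KO against WT/KO, quality weights called 8 (Hk2, Pfkm, Pfkp, Pkm, Pfkfb2, Pfkfb3, Pfkfb4 and Minpp1) and identifiers under 200 called 7 (the same without Hk2 and Pfkfb4, and with Hk3). The rich libraries called 3 there (Pfkp, Pfkfb2 and Minpp1), and the replicate block called Minpp1 beside 0.85% of all genes. In D45/KO against WT/WT, Pfkfb4 was called with quality weights (5.35% of genes), the identifier covariate (1.03%) and in poor libraries (2.35%), Minpp1 with quality weights and in poor libraries, Pfkm in poor libraries and Pkm with identifiers under 200. Pkm was also called in D45/KO against D45/D45 with identifiers under 200 (0.638%), and Pgam2 in WT/KO against WT/WT with quality weights (8.65%). Across the 5 genotypes the covariate called Pfkfb2 and Pfkfb4 (2.98%), quality weights Pfkfb2 and Minpp1, and identifiers under 200 called 6. Hk3 was the other gene among the 4 with the smallest p across the 5 genotypes, at an unadjusted p of 0.0945 (adjusted p = 0.998, edgeR).

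**Figure D4:**
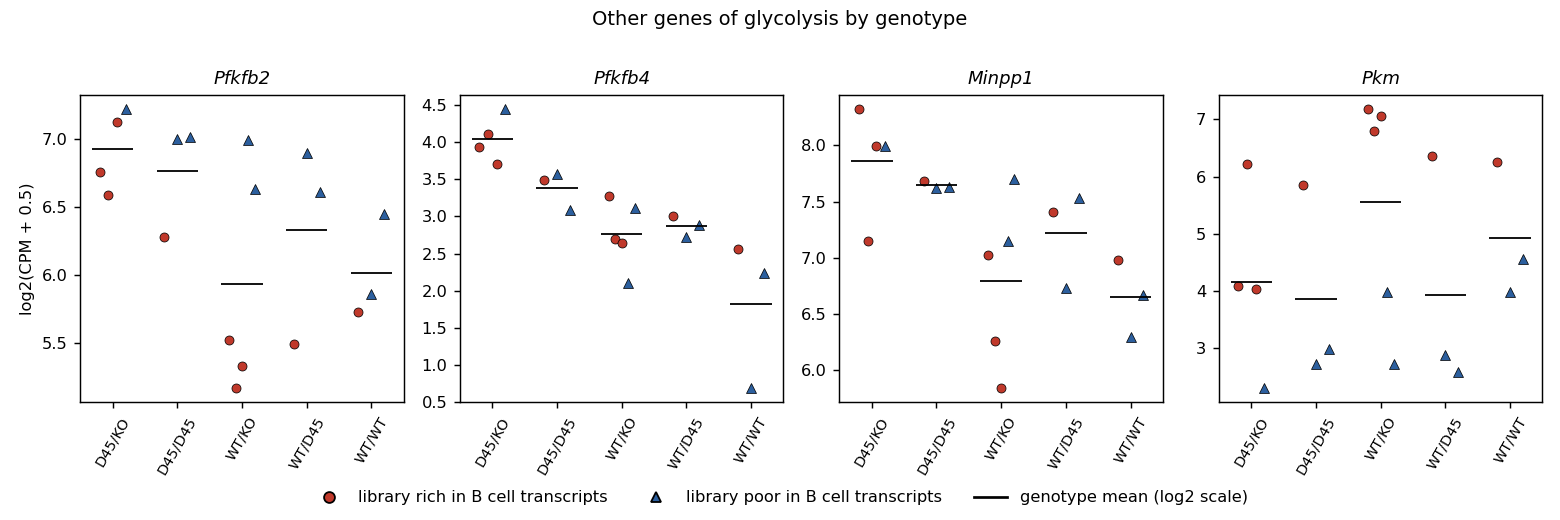
Levels of 4 other genes of glycolysis as log2(CPM + 0.5) by genotype, with symbols as in the plot of the members by genotype. Pfkfb4 is higher in each of the 4 D45/KO libraries than in every other library, and Pkm is higher in the rich libraries in its median, with overlap.

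The genes whose log2 CPM was most like that of Bpgm over the 18 libraries were Bnip3l (Pearson r = 0.996), Alas2 (0.992), Ube2l6 (0.989), Mkrn1 (0.986) and Gdpd3 (0.985). For Bnip3l the r was 0.984 within the 9 rich and 0.991 within the 9 poor libraries. Most like Pklr were Nup188 (0.830), Slc12a4 (0.798), Xpo5 (0.796), Il1rl1 (0.794) and Pigr (0.790). Most like the mean of the 10 members were Nfkbid (0.957), Slain2 (0.946), Fam129c (0.944), Ybx1 (0.941) and Hmha1 (0.933), with 0.768 within rich and 0.886 within poor libraries for Nfkbid. These are descriptions over libraries that share the split by B cell transcripts and the TMM scaling.

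The authors' deposited table, which compares WT/WT over WT/KO and so runs opposite to the direction used here, holds 9 of the 10 members, all but Eno1. In the authors' deposited table the log2 fold change of WT/WT over WT/KO was 0.96 for Bpgm (adjusted p = 0.857, limma), -0.61 for Pgk1 (adjusted p = 0.853) and 0.35 for Hk1 (adjusted p = 0.861). The fit made here gave -1.08 for Bpgm and 0.99 for Pgk1 in WT/KO over WT/WT. Once the authors' deposited table is turned to the same direction, 7 of the 9 members have the same sign in both, and Aldoa and Pklr do not. For these the authors' deposited table has 0.22 and 0.086 in WT/WT over WT/KO, and the fit made here has 0.081 and 0.13 in WT/KO over WT/WT. Both results come from WT/WT and WT/KO mice of this series, so a shared sign is no independent support. No member was called in either.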

How the data were processed

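The authors deposited raw read counts per gene symbol for 18 libraries of sorted spleen erythroblasts. Per the labels' protocols the kit was Swift Rapid RNA. HISAT2, featureCounts, limma and mm9 are named, without roles, in the submitters' processing notes, and no source used here gives the strand setting. The authors also deposited log2 fold changes with p-values and adjusted p-values for WT/WT over WT/KO in 9918 genes. Counts were fitted here in R 4.3.3 with edgeR 4.0.16: filterByExpr by genotype, TMM, and a quasi-likelihood fit of genotype alone over the 18 libraries. A call is a Benjamini-Hochberg adjusted p below 0.05 among the 13405 genes tested. CPM took library sizes after TMM, and its log2 form used 2 as prior count. The SE is the absolute log2 fold change over the square root of F, and is approximate. Log2 ratios added 0.5 to each count. Depth ran from 9.36 M to 56.3 M counts (M for mega). DESeq2 1.42.0 and limma 3.58.1 were alternatives. The fit was tested on simulated data with the same dispersion for every gene and no split by B cell transcripts. How it behaves at the spread within genotypes seen here was not tested. The text names the 10 members, Klf1, listed genes of glycolysis called in any fit, Pkm, Hk2, the 4 with the smallest p across the genotypes, and the 5 genes most like Bpgm, Pklr and the members' mean. The members and lists were chosen with earlier results of these data known.

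Replicate numbers were checked for pairing by correlating same-numbered libraries' deviations from their genotype means. Every pair exceeded 0.1 in D45/D45 against WT/WT (0.19 to 0.71) and in WT/D45 against WT/WT (0.12 to 0.71), so these numbers may pair the samples there. The main fit used genotype alone in both comparisons and takes no account of such pairing. The replicate block called 0 members in both. The labels do not say what the numbers share. In D45/D45, WT/D45 and WT/WT, replicate 1 is the only library rich in B cell transcripts and the only one with an identifier under 200. The correlations therefore cannot tell pairing by number from that split.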

Additional observations from a re-analysis of the deposited data

Results flagged for a closer look

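One library stood far from the others of its genotype in CPM. Bpgm reached 17195 CPM in WT/KO replicate 4, where the next highest WT/KO library had 5441 CPM, and this gap was 0.737 of the genotype's whole range. Of 26 groups tested in this way (10 members and 3 ratios in D45/KO and WT/KO), 1 passed the threshold, and chance flags about 1 in 20. Whether that rate holds for Bpgm in CPM was not tested. In log2 CPM the flagged library had 14.07, the next highest WT/KO library 12.41 and the lowest 10.29. The flagged library is poor in B cell transcripts, and without it the log2 fold change of Bpgm in D45/KO against WT/KO was 0.17 in place of -0.80.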

How the results depend on the processing

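Members were called under 5 of the settings tried. Limma-voom with library quality weights called 2 in D45/KO against WT/KO (Hk1 and Pgam1), 2 in D45/KO against D45/D45 (Aldoa and Pgk1) and 3 across the 5 genotypes. The B cell covariate called 1 in D45/KO against WT/KO. Mice with an identifier under 200, all rich, gave 3 in D45/KO against WT/KO, 1 in D45/KO against WT/WT and 3 across the genotypes. Chosen after seeing the data, the rich libraries alone gave 2 in D45/KO against WT/KO and the poor alone gave 1 across the genotypes. The other settings, each left-out library included, called 0 members. Under the replicate block, which pairs by number, 0 members were called, with 112, 2, 120, 11, 6, 0 and 96 genes called in the order of the 6 pairs and the 5 genotypes, against 30, 3, 62, 0, 0, 0 and 47 for the same libraries without it. Over all genes, DESeq2 called 185 in D45/KO against WT/KO and 421 in D45/KO against WT/WT, where edgeR called 23 and 83. DESeq2 size factors moved the median of all genes in D45/KO against WT/KO to -0.26, where TMM gave -0.15. Over all 60 log2 fold changes of the members, 38 changed sign under at least 1 of their alternatives (153 of 1388 values), and the cause was not tested.

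Log2 ratios were never called, and 15 of 18 changed sign. For Pklr to Pkm they turned to 0.95 in WT/KO against WT/WT with identifiers of 200 or above. In rich libraries they were 0.62 in D45/KO against WT/KO, -0.62 in D45/D45 against WT/WT and -0.054 in WT/D45 against WT/WT. In poor libraries they were 0.33 in D45/KO against D45/D45, 2.23 in D45/KO against WT/WT and 2.24 in WT/KO against WT/WT. For Bpgm to Pgam1 they turned to -0.70 in D45/KO against WT/KO with identifiers of 200 or above and -0.82 in poor libraries, to 1.81 and 2.43 in rich libraries for D45/KO against D45/D45 and WT/WT, and to 0.53 (rich) and 0.29 (poor) in WT/KO against WT/WT. For Hk1 to Hk2 they turned to 0.0018 with 1 added to each count, 2.36 in rich and 0.11 in poor libraries for D45/KO against WT/WT, to -0.51 for D45/D45 against WT/WT with identifiers of 200 or above and in poor libraries alike, to 0.69 (rich) and 0.62 (poor) for D45/KO against D45/D45, and to 0.48 in rich libraries for WT/D45 against WT/WT.

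Leaving out 1 library at a time, Pklr to Pkm ranged from -0.78 to 1.16 in D45/KO against WT/KO, -1.88 to 0.066 against D45/D45, -0.82 to 1.12 against WT/WT and -0.90 to 0.40 in WT/KO against WT/WT. Bpgm to Pgam1 ranged from -0.16 to 1.36 in D45/KO against WT/KO, -1.85 to 1.23 in D45/KO against WT/WT, -2.39 to 0.68 in WT/KO against WT/WT and -1.93 to 1.23 in WT/D45 against WT/WT. Hk1 to Hk2 ranged from -1.51 to 0.20 in D45/KO against D45/D45, -2.02 to 1.90 in D45/KO against WT/WT, -1.48 to 2.44 in D45/D45 against WT/WT and -3.19 to 0.73 in WT/D45 against WT/WT.

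The log2 fold change of Bpgm turned to 0.26 in D45/KO against WT/KO with quality weights, 0.13 with the identifier covariate, 0.80 with identifiers under 200, 0.44 with the replicate block, 0.47 without it and 0.51 in rich libraries. With identifiers under 200 it was 0.93 in D45/KO against D45/D45, 1.59 in D45/KO against WT/WT, 0.67 in D45/D45, 0.79 in WT/KO and 0.27 in WT/D45 against WT/WT. In rich libraries those 5 were 1.20, 1.86, 0.66, 1.35 and 0.27, and the covariate gave 0.15 in D45/KO against D45/D45. Leaving out 1 library, Bpgm ranged from -1.06 to 0.17 in D45/KO against WT/KO, -1.47 to 0.47 in D45/D45, -2.06 to 0.087 in WT/KO and -2.22 to 0.11 in WT/D45 against WT/WT. Pgk1 in D45/KO against D45/D45 turned to -0.39 with identifiers under 200 and -0.19 in rich libraries. In poor libraries Gpi1 was 0.22 in D45/KO against WT/KO and Pklr 0.12 in D45/KO against WT/WT, where Pklr ranged from -1.62 to 0.17 over left-out libraries. Pkm in D45/KO against WT/WT turned to 0.13 with the identifier covariate, 1.06 with identifiers of 200 or above and 0.55 with the replicate block, and ranged from -1.64 to 0.54.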
